A study of Homo sapiens with 24 samples.

Results

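The genes described here encode the receptors by which a macrophage detects RNA or DNA in its cytosol, together with STING and the first adaptors and kinase below them: DDX58, IFIH1, DHX58, MAVS, TMEM173, TLR3, ZBP1, EIF2AK2, TBK1 and IFI16. They were found by gene symbol and are 10 of the 58735 genes of the deposited table, all protein-coding. Of the 10, 8 passed the filter on low values (4 or more of the 24 libraries at 1 FPKM or above), and TLR3 and ZBP1 did not. FPKM counts fragments per kilobase of a gene after scaling for library size, so that levels of different genes can be set side by side.

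RNA-seq was done on THP-1, a human monocytic leukaemia line that phorbol ester turns into macrophage-like cells. All cells had 20 nM PMA for 72 hours. CES1KD cells are a stable line carrying a lentiviral short-hairpin RNA against CES1, a carboxylesterase of the endoplasmic reticulum that hydrolyses lipid esters, and the cells set against them are called WT. M1 cells received LPS at 1 ug/ml plus interferon gamma at 100 ng/ml, M2 cells received IL-4 at 100 ng/ml, and M0 cells received neither. The groups were CES1KD M0, CES1KD M1, CES1KD M2, WT M0, WT M1 and WT M2, with 4 libraries each. The sources used here do not say whether WT cells carry a control vector or how long the polarising treatments lasted. A vector effect and an effect of CES1 loss therefore cannot be told apart, and whether CES1KD is 1 clone is not given either. Nothing in the labels says that replicates came from separate cultures, so every p-value measures the spread between these libraries only, which may be technical.

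RIG-I (DDX58) and MDA5 (IFIH1) are helicases that bind viral or misplaced double-stranded RNA and pass the signal to MAVS on mitochondria. LGP2 (DHX58) is their relative without a signalling domain. Cytosolic DNA is detected by cGAS and by IFI16, and the signal runs through STING (TMEM173) on the endoplasmic reticulum. MAVS, STING and the endosomal receptor TLR3 all recruit the kinase TBK1, which phosphorylates interferon regulatory factors and so starts transcription of type I interferon. Interferon in turn raises many of the sensor genes, as well as EIF2AK2 (PKR), the kinase that stops translation on double-stranded RNA, and ZBP1, the sensor of Z-form nucleic acid that triggers necroptosis.

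The libraries held 14881563 to 26671681 fragments on genes. CES1 was at 0 to 0.124 FPKM in the CES1KD libraries and at 4.04 to 7.78 FPKM in the WT libraries. Its mean was 98.9%, 99.4% and 99.2% lower in CES1KD than in WT cells in M0, M1 and M2, with an exact two-sided permutation p of 0.0286 in each state, the smallest that 4 against 4 allows. Of 10 monocyte and macrophage markers, 8 passed the filter, CD68 and MRC1 being the exceptions. CD68 averaged at most 0.0558 FPKM in any group. The summed level of the 10 markers was 643 FPKM in CES1KD M0 and 446 FPKM in WT M0, 856 FPKM in CES1KD M1 and 664 FPKM in WT M1, and 634 FPKM in CES1KD M2 and 550.2 FPKM in WT M2. CSF1R was the highest of them in each group, at 280 FPKM in CES1KD M0 and 127 FPKM in WT M0. Of the 8 tested, 5 were called higher and 3 lower in CES1KD M0 than in WT M0. Over all genes these shares were 28.1% and 26.3%. LYZ (2.38 and 11.8 FPKM), ITGAM (40.5 and 68.1 FPKM) and FCGR1A (6.05 and 16.1 FPKM) were lower in CES1KD M0 than in WT M0. In M1 4 were called higher and 3 lower, where 28.5% of all genes were called higher and 28.7% lower. In M2 2 were called higher and 3 lower, where 25.6% of all genes were called higher and 26.7% lower. Of 21 markers of T cells, B cells, fibroblasts, epithelium and red cells, 0 passed. Their summed level was 1.39 FPKM in CES1KD M0 and 0.721 FPKM in WT M0, 1.61 FPKM in CES1KD M1 and 0.945 FPKM in WT M1, and 1.53 FPKM in CES1KD M2 and 0.703 FPKM in WT M2. CD3E, EPCAM and HBB were at 0 in every library. In M0, most of the difference came from PDGFRB, a fibroblast and pericyte receptor, at 0.658 FPKM in CES1KD M0 and 0.083 FPKM in WT M0. The part of these markers in the results below was not tested.

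Interferon acts on promoters through a short element whose core reads GAAA, any 2 bases and GAAA again, on either strand. The promoters of 4 of the genes are printed to show where this core lies, or does not lie, beside the transcription start. Sequences are RefSeq's for GRCh38.p14, 250 bases before to 50 bases after the start, on the strand of the gene. They exist for 7 of the 10 genes in the table used, DDX58 under its newer symbol RIGI. TMEM173, DHX58 and ZBP1 are not among them. Capitals mark the matches to the core.
IFIH1, chr2:162318635-162318934, minus strand: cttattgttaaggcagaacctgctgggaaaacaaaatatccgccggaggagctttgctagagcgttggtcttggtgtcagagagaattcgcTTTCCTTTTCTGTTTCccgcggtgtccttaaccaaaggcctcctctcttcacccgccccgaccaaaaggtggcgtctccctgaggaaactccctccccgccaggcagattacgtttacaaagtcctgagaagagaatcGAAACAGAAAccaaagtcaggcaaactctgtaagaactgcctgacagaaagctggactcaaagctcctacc
EIF2AK2, chr2:37156931-37157230, minus strand: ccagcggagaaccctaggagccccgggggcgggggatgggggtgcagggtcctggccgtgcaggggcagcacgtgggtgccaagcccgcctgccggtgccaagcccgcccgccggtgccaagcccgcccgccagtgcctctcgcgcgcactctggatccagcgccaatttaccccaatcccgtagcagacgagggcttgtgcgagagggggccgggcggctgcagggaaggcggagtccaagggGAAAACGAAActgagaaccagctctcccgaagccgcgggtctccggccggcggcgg
TLR3, chr4:186068906-186069205, plus strand: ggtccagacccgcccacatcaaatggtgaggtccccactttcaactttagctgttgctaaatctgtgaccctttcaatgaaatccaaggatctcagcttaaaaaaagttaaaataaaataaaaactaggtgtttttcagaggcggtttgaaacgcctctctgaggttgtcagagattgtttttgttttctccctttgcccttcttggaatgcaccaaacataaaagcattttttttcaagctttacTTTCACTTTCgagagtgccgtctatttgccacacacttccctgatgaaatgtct
DDX58, chr9:32526147-32526446, minus strand: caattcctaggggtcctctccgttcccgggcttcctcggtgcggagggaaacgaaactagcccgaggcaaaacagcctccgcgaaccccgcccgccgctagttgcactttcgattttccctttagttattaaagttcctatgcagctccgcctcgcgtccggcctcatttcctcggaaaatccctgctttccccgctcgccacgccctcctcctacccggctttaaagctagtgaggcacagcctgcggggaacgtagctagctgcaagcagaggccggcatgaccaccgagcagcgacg

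IFIH1 has 3 matches, of which the 2 at bases -159 to -150 and -153 to -144 from the start (counted without a base 0) overlap on the opposite strand and the other lies at -21 to -12. EIF2AK2 has 1 match across the start, at -6 to 4, and TLR3 has 1 at -4 to 6 on the opposite strand. The windows of DDX58, MAVS, TBK1 and IFI16 hold none. The core occurs in 3.57% of the 35116 promoters in the table, searched on both strands. A looser NF-kB-type pattern (GGGA, any 4 bases, CC) occurs in 25.6% of all promoters, and among these genes it was found in IFIH1 and DDX58. The interferon gamma pattern TTCNNNGAA, present in 7.66% of promoters, was found only in TLR3 among the 7 genes. A match is a string of letters in this window and not a measured binding site.

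In resting M0 cells the question was how the sensors differed between the CES1KD and WT lines. DDX58, IFIH1, EIF2AK2, IFI16 and DHX58 were all higher in CES1KD cells, by 2.65-fold to 8.23-fold. TMEM173 was at 16.6% of its WT level, MAVS was 36% lower, and TBK1 did not pass the test. Of the 8 genes tested, 5 rose, 2 fell and 1 was not called, at an adjusted p under 0.05. Of all 13242 genes tested, 54.3% were called in this comparison, 28.1% higher and 26.3% lower, so a call alone says little here. The sizes differ more: 6 of the 8 changed by over 2-fold on the log2(FPKM + 1) scale, against 8.5% of all genes. The median log2 difference was 1.58 for the 8 genes and 0.00 for all genes.

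DDX58 (chromosome 9, 32455705 to 32526324, minus strand) had the largest rise. Its levels were 45.9, 33.1, 36.4 and 40.4 FPKM in CES1KD M0 libraries, against 4.74, 4.51, 4.36 and 5.33 FPKM in WT M0 libraries. The lowest CES1KD library thus lay far above the highest WT library. The log2 difference was 2.79 ± 0.12 (SE; limma adjusted p = 5.67e-15, n = 4 each). IFIH1 (chromosome 2, 162267079 to 162318703, minus strand) had 37.8, 32.7, 34.4 and 36.9 FPKM in CES1KD M0, against 7.51, 8.16, 8.19 and 8.94 FPKM in WT M0. The groups did not overlap, and the log2 difference was 1.99 ± 0.09 (limma adjusted p = 1.76e-14). In WT M0 cells the MDA5 transcript was the more abundant of the pair, and in CES1KD M0 cells the 2 were about level: the ratio of DDX58 to IFIH1 within a library was 1.09 ± 0.0867 in CES1KD M0 and 0.578 ± 0.0444 in WT M0 (SD, n = 4 each). DHX58 (chromosome 17, 42101404 to 42112733, minus strand) moved less than its 2 relatives. It averaged 11.4 ± 1.49 FPKM in CES1KD M0 and 4.31 ± 0.195 FPKM in WT M0 (SD, n = 4 each), with a log2 difference of 1.22 ± 0.07 (SE; limma adjusted p = 5.75e-12).

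MAVS (chromosome 20, 3846799 to 3876123, plus strand), the shared adaptor of the helicases, went the other way from them. It had 4.56, 4.56, 4.50 and 4.55 FPKM in CES1KD M0, against 7.36, 6.93, 7.46 and 6.63 FPKM in WT M0. The groups were apart, with a log2 difference of -0.55 ± 0.06 (SE; limma adjusted p = 3.09e-08). The ratio of DDX58 to MAVS, sensor to adaptor, was 8.57 ± 1.19 in CES1KD M0 and 0.671 ± 0.094 in WT M0 (SD, n = 4 each).

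On the DNA side the sensor and the adaptor also parted. IFI16 (chromosome 1, 158999968 to 159055155, plus strand) had 53.3, 47.0, 45.9 and 53.1 FPKM in CES1KD M0, against 11.6, 11.9, 12.1 and 13.0 FPKM in WT M0. TMEM173 (chromosome 5, 139475534 to 139482935, minus strand), encoding STING, had 6.84, 6.92, 6.72 and 6.59 FPKM in CES1KD M0, against 43.6, 41.3, 38.1 and 40.1 FPKM in WT M0. Neither gene's groups overlapped. The log2 difference was 1.95 ± 0.08 for IFI16 (SE; limma adjusted p = 3.99e-15). For TMEM173 it was -2.43 ± 0.09 (SE; limma adjusted p = 4.69e-16). The ratio of IFI16 to TMEM173 in a library, which no library scaling can alter, was 7.37 ± 0.656 in CES1KD M0 and 0.299 ± 0.0265 in WT M0 (SD, n = 4 each). Fewer STING-expressing cells and less TMEM173 RNA per cell cannot be told apart in bulk RNA.

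TBK1 (chromosome 12, 64451880 to 64502108, plus strand), the kinase that both routes share, had 13.4, 13.3, 12.9 and 13.1 FPKM in CES1KD M0, against 12.3, 11.5, 11.8 and 12.1 FPKM in WT M0. The log2 difference was 0.13, with a 95% interval of -0.09 to 0.36 (limma adjusted p = 0.315). The libraries did not overlap, and in a fit on these 2 groups alone the same difference was called (limma adjusted p = 0.00543). EIF2AK2 (chromosome 2, 37099210 to 37157065, minus strand), the effector kinase PKR, had 39.2, 35.2, 36.6 and 37.8 FPKM in CES1KD M0, against 7.58, 8.75, 8.53 and 9.17 FPKM in WT M0. All CES1KD libraries were above all WT libraries, by 4.37-fold on the means, and the log2 difference was 2.01 ± 0.09 (SE; limma adjusted p = 1.91e-14). EIF2AK2 overlaps GPATCH11 on the opposite strand, and whether counting used strand is not given. GPATCH11 averaged 9.14 FPKM in CES1KD M0 and 13.1 FPKM in WT M0, a difference in the other direction.

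**Figure D1:**
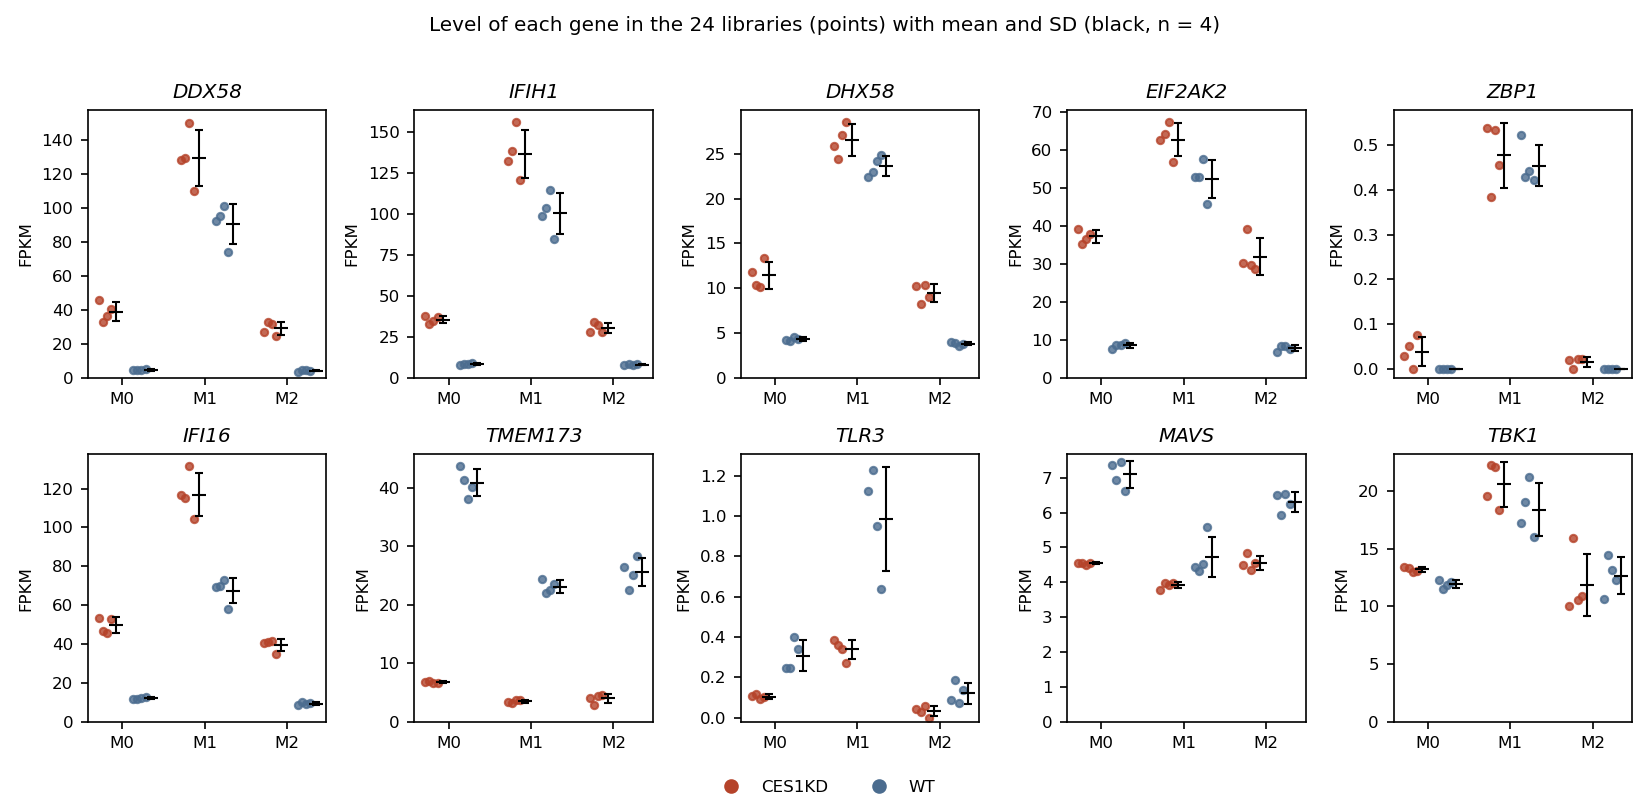
FPKM of the 10 genes (linear axes, each gene on its own scale) in each of the 24 libraries by state, CES1KD left of WT; points are libraries and black marks the mean and SD (n = 4). All CES1KD libraries of DDX58, IFIH1, DHX58, EIF2AK2 and IFI16 stand above WT in M0 and M2, the ranges of DHX58 and EIF2AK2 overlap in M1, and all those of TMEM173 stand below WT in all 3 states.

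In M1 cells, where LPS and interferon gamma were present, the fold between the lines in the RNA helicases, EIF2AK2 and IFI16 was smaller than in M0, although the difference in FPKM was wider in DDX58, IFIH1 and IFI16. DDX58, IFIH1, EIF2AK2 and IFI16 were still called higher in CES1KD cells, but by 1.2-fold to 1.73-fold, and DHX58 was not called. TMEM173 stayed at 15.4% of its WT level. Of the 8 genes 4 rose, 2 fell and 2 were not called, where 57.2% of all genes were called (28.5% higher, 28.7% lower). The median log2 difference was 0.21 for the 8 genes and 0.00 for all genes.

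DDX58 had 129, 130, 150.4 and 110.2 FPKM in CES1KD M1 libraries, against 92.2, 95.1, 101.4 and 74.0 FPKM in WT M1 libraries. IFIH1 had 132, 138, 156 and 121 FPKM in CES1KD M1, against 98.8, 103, 114 and 84.3 FPKM in WT M1. In both genes the lowest CES1KD library lay only just above the highest WT library. The log2 difference was 0.51 (limma adjusted p = 6.2e-04) for DDX58. It was 0.45 (limma adjusted p = 1.57e-04) for IFIH1. IFI16 kept the widest margin of the raised genes, with 116.5, 115, 131 and 104 FPKM in CES1KD M1, against 69.2, 69.6, 73.1 and 58.3 FPKM in WT M1. Its log2 difference was 0.78 ± 0.08 (SE; limma adjusted p = 2.09e-08).

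EIF2AK2 had 62.4, 64.1, 67.3 and 56.8 FPKM in CES1KD M1, against 52.9, 52.9, 57.7 and 45.6 FPKM in WT M1, so the groups overlapped. Its call (log2 difference 0.26, limma adjusted p = 0.0161) was lost under TPM scaling (adjusted p = 0.0901), under scaling by total fragments (0.0745), without WT M1 replicate 4 (0.0719) and without CES1KD M1 replicate 3 (0.0533). DHX58 averaged 26.5 ± 1.78 FPKM in CES1KD M1 and 23.6 ± 1.10 FPKM in WT M1 (SD, n = 4 each), with a log2 difference of 0.16 (limma adjusted p = 0.0758). Without CES1KD M1 replicate 2, whose 24.4 FPKM was the lowest of its group, DHX58 was called at 0.20 (limma adjusted p = 0.0442). TMEM173 had 3.48, 3.22, 3.78 and 3.76 FPKM in CES1KD M1, against 24.4, 22.0, 22.5 and 23.6 FPKM in WT M1, with a log2 difference of -2.40 ± 0.09 (SE; limma adjusted p = 6.04e-16). MAVS had 3.79, 3.99, 3.93 and 3.98 FPKM in CES1KD M1, against 4.44, 4.32, 4.54 and 5.58 FPKM in WT M1. Every CES1KD library was below every WT library, and the log2 difference was -0.21 (limma adjusted p = 0.00287). TBK1 averaged 20.5 ± 1.93 FPKM in CES1KD M1 and 18.4 ± 2.26 FPKM in WT M1 (SD, n = 4 each), its groups overlapped, and the 95% interval of the log2 difference was -0.07 to 0.38 (limma adjusted p = 0.232).

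In M2 cells the calls had the same directions as in M0. DDX58, IFIH1, EIF2AK2, IFI16 and DHX58 were higher in CES1KD by 2.49-fold to 6.96-fold, TMEM173 was at 15.7% of WT and MAVS was 27.7% lower. Of the 8 genes 5 rose, 2 fell and 1 was not called, where 52.3% of all genes were called (25.6% higher, 26.7% lower). The median log2 difference was 1.45 for the 8 genes and -0.01 for all genes.

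DDX58 had 27.2, 33.2, 31.6 and 24.5 FPKM in CES1KD M2, against 3.67, 4.61, 4.53 and 3.93 FPKM in WT M2. Its groups were far apart (log2 difference 2.53, limma adjusted p = 3.94e-14). IFIH1 averaged 30.3 ± 2.99 FPKM in CES1KD M2 and 8.10 ± 0.435 FPKM in WT M2 (SD, n = 4 each). DHX58 averaged 9.47 ± 1.00 FPKM in CES1KD M2 and 3.80 ± 0.180 FPKM in WT M2 (SD, n = 4 each). The log2 differences of these RNA helicases were 1.78 (limma adjusted p = 1.5e-13) for IFIH1 and 1.12 (2.97e-11) for DHX58. In neither gene did the libraries of the 2 lines overlap. IFI16 averaged 39.6 ± 3.04 FPKM in CES1KD M2 and 9.45 ± 0.693 FPKM in WT M2 (SD, n = 4 each; log2 difference 1.96, limma adjusted p = 4.79e-15). TMEM173 lay between 2.89 and 4.56 FPKM in CES1KD M2 (mean 4.01 ± 0.766, SD, n = 4), against 22.5 to 28.2 FPKM in WT M2 (mean 25.6 ± 2.42, SD, n = 4). The highest CES1KD library was thus far below the lowest WT library, with a log2 difference of -2.42 ± 0.09 (SE; limma adjusted p = 6.22e-16). MAVS averaged 4.56 ± 0.201 FPKM in CES1KD M2 and 6.30 ± 0.291 FPKM in WT M2 (SD, n = 4 each; log2 difference -0.39, limma adjusted p = 3.87e-06).

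CES1KD M2 replicate 2 stood apart in several of these genes. EIF2AK2 had 30.1, 39.1, 29.7 and 28.6 FPKM in CES1KD M2, against 6.85, 8.34, 8.38 and 7.65 FPKM in WT M2, and TBK1 had 10.1, 15.9, 10.6 and 10.9 FPKM in CES1KD M2, against 10.7, 14.5, 13.2 and 12.3 FPKM in WT M2. In both genes replicate 2 was the highest of the CES1KD libraries. EIF2AK2 was called with it (log2 difference 1.89, limma adjusted p = 6.57e-14). Leaving out any single library of the 2 groups, its log2 difference was 1.79 to 1.94 (limma adjusted p at most 1.46e-12). TBK1 was not called with all libraries, at -0.10 with a 95% interval of -0.33 to 0.12 (limma adjusted p = 0.46). Without that library it was called lower in CES1KD, at -0.24 (limma adjusted p = 0.0225).

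**Figure D2:**
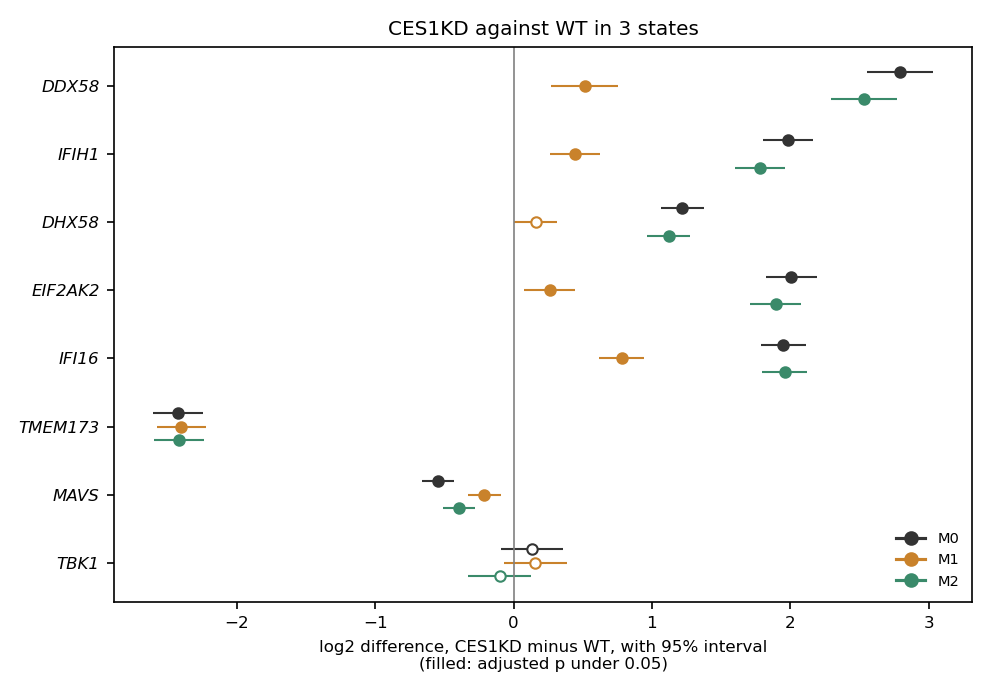
Log2 difference, CES1KD minus WT, on the log2(FPKM + 1) scale for the 8 genes tested in M0, M1 and M2. Points are limma estimates, filled where called and open where not, and bars are 95% intervals. The 5 raised genes lie between 1.12 and 2.79 in M0 and M2 and between 0.16 and 0.78 in M1, and TMEM173 lies near -2.4 in all states.

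The M1 treatment raised the 3 RNA helicases, EIF2AK2 and IFI16 in both lines, by a smaller fold in CES1KD cells, which started from a higher level. In FPKM the rise of DDX58, IFIH1 and IFI16 was larger in CES1KD cells. Against M0 in the same line, 6 of the 8 genes rose and 2 fell in CES1KD cells and also in WT cells, where 44.7% of all genes were called in CES1KD (24.9% higher, 19.8% lower) and 48.1% in WT (26.4% higher, 21.8% lower). The 6 were DDX58, IFIH1, DHX58, EIF2AK2, IFI16 and TBK1, and the 2 were TMEM173 and MAVS. The median log2 difference of the 8 genes was 0.94 in CES1KD and 2.29 in WT, and that of all genes was 0.01 in CES1KD and 0.00 in WT. All of these calls kept their direction and their side of the threshold when FPKM was rescaled to TPM, which put the median of all genes at -0.21 in CES1KD and -0.20 in WT.

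In CES1KD cells, DDX58 was 3.33-fold higher in M1 than in M0 (means of 130 and 38.9 FPKM). In WT cells it was 19.1-fold higher (90.7 and 4.73 FPKM). The knockdown effect in M1 minus that in M0 was -2.28 ± 0.16 on the log2 scale (SE; limma adjusted p = 5.55e-10). This difference was tested for each gene, and 1 rose and 5 fell of the 8, where 23.6% of all genes were called (10.4% higher, 13.2% lower). EIF2AK2 was 1.69-fold higher in M1 than in M0 in CES1KD cells and 6.14-fold higher in WT cells, with a difference of -1.75 (limma adjusted p = 6.08e-10). IFIH1 was 3.85-fold higher in CES1KD cells and 12.2-fold higher in WT cells, with a difference of -1.54 (3.74e-09). The DNA sensor and the third helicase followed the same order. IFI16 was 2.35-fold higher in CES1KD cells and 5.56-fold higher in WT cells, with a difference of -1.17 (5.74e-08). DHX58 was 2.32-fold higher in CES1KD cells and 5.47-fold higher in WT cells, with a difference of -1.06 (1.16e-07). The lines thus differed by a smaller fold in M1 than in M0 in these 5 genes.

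Of the genes that fell, MAVS also differed less between the lines in M1 than in M0, whereas the difference in TMEM173 moved little. TMEM173 was 47.3% lower in M1 than in M0 in CES1KD cells and 43.4% lower in WT cells. Its log2 difference was -0.77 in CES1KD cells (limma adjusted p = 1.65e-07) and -0.79 in WT cells (8.26e-08), and the knockdown effect moved by only 0.03, with a 95% interval of -0.23 to 0.28 (limma adjusted p = 0.921). MAVS was 13.6% lower in M1 than in M0 in CES1KD cells and 33.5% lower in WT cells, and the knockdown effect moved by 0.33 (limma adjusted p = 0.00342). TBK1 was 1.56-fold higher in CES1KD cells (limma adjusted p = 9.95e-05) and 1.54-fold higher in WT cells (1.35e-04), and the difference between the lines was 0.02, with a 95% interval of -0.30 to 0.34 (limma adjusted p = 0.944).

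**Figure D3:**
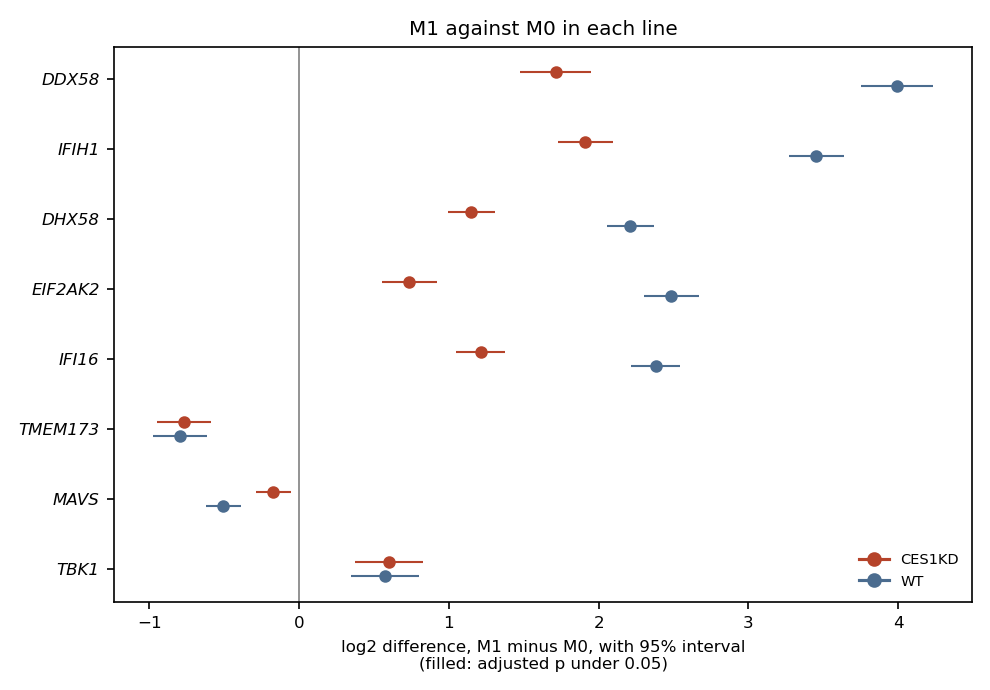
Log2 difference of M1 against M0 on the log2(FPKM + 1) scale for the 8 genes, CES1KD above WT within each gene. Points are limma estimates, all of them called, and bars are 95% intervals. DDX58 is at 1.71 in CES1KD and 3.99 in WT, whereas TMEM173 is at -0.77 in CES1KD and -0.79 in WT.

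IL-4 lowered a few of these genes and raised none past the threshold. Against M0, 4 of the 8 genes fell and 0 rose in CES1KD M2, and 2 fell and 0 rose in WT M2, where 22.8% of all genes were called in CES1KD (11.3% higher, 11.5% lower) and 27.1% in WT (14.6% higher, 12.5% lower). TMEM173 was 40.8% lower in CES1KD M2 than in CES1KD M0 (log2 difference -0.65, limma adjusted p = 4.88e-06). In WT cells its log2 difference was -0.66 (limma adjusted p = 3.39e-06). IFI16 had a log2 difference of -0.32 in CES1KD cells (limma adjusted p = 0.004) and -0.33 in WT cells (0.00273). DDX58 (-0.41, limma adjusted p = 0.012) and DHX58 (-0.24, 0.0205) were called in CES1KD cells, with overlapping libraries. Both calls were lost without CES1KD M0 replicate 1 (adjusted p = 0.0584 for DDX58 and 0.0574 for DHX58) and without CES1KD M2 replicate 4 (0.0531 and 0.055), and that of DHX58 also without CES1KD M0 replicate 4 (0.104) or CES1KD M2 replicate 2 (0.0713). With all libraries, IFIH1 (-0.223, limma adjusted p = 0.0735), EIF2AK2 (-0.225, 0.0749) and TBK1 (-0.166, 0.322) were not called in CES1KD cells. Without CES1KD M2 replicate 2, the library noted above, IFIH1 (-0.27, adjusted p = 0.0287), EIF2AK2 (-0.32, 0.00291) and TBK1 (-0.30, 0.0116) were called lower as well. In WT cells MAVS was not called with all libraries (-0.15, limma adjusted p = 0.0566) and was called lower without WT M0 replicate 4 (-0.18, 0.0365). Scaling also moved these counts: in WT, MAVS and DHX58 were called lower under TPM scaling (adjusted p = 0.00729 and 0.0189) and under scaling by total fragments (0.00358 and 0.0257), which makes 4 genes. In CES1KD, IFIH1 (0.0229) and EIF2AK2 (0.0226) were called lower under total fragments, which makes 6. Over all genes, 3681 were called in WT under TPM scaling and 3965 under total fragments, and 3176 in CES1KD under total fragments. For the knockdown effect in M2 minus that in M0, limma called 0 of the 8 genes, where 6.65% of all genes were called (2.41% higher, 4.24% lower), and 0 of the 8 had an unadjusted p under 0.05. The count with voom on the recovered fragments was 0 as well.

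TLR3 and ZBP1 were low in every group. TLR3 in CES1KD M2 and ZBP1 in M0 and M2 were near the limit of detection. The highest mean of TLR3 was 0.984 FPKM, from 459 fragments, in WT M1. TLR3 (chromosome 4, 186069152 to 186088069, plus strand), the endosomal receptor for double-stranded RNA, rested on 59 fragments over the 4 CES1KD M0 libraries and 155 over the 4 WT M0 libraries. Its levels were 0.106, 0.118, 0.0928 and 0.105 FPKM in CES1KD M0, against 0.248, 0.245, 0.401 and 0.341 FPKM in WT M0. In M1 they were 0.384, 0.362, 0.341 and 0.271 FPKM in CES1KD, against 1.12, 1.23, 0.949 and 0.636 FPKM in WT. The groups did not overlap in either state. On the means TLR3 was 2.92-fold lower in CES1KD than in WT cells in M0 and 2.9-fold lower in M1. Fitted without the filter on low values, its log2 difference was -0.24 in M0 (limma adjusted p = 0.0155) and -0.56 in M1 (2.67e-06). In M2, with 21 fragments in CES1KD and 60 in WT, TLR3 was 3.78-fold lower in CES1KD on the means. The highest CES1KD M2 library, at 0.0595 FPKM, lay below the lowest WT M2 library, at 0.0729 FPKM. The log2 difference there was not called (-0.12, limma adjusted p = 0.305), on a scale whose pseudocount of 1 understates changes at such levels. Against M0, M1 raised TLR3 by 3.21-fold in CES1KD cells (limma adjusted p = 0.008) and by 3.19-fold in WT cells (1.45e-06). On the means TLR3 was 3.27-fold lower in M2 than in M0 in CES1KD cells and 2.52-fold lower in WT cells. In neither line did the M0 and M2 libraries overlap. On the log2 scale M2 against M0 was called lower in WT cells (-0.22, limma adjusted p = 0.0498) and not called in CES1KD cells (-0.10, 0.56).

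ZBP1 (chromosome 20, 57603846 to 57620576, minus strand) had 18 fragments over the CES1KD M0 libraries and 0 over the WT M0 libraries. Its levels in CES1KD M0 were 0.0284, 0.0516, 0 and 0.0749 FPKM. A count of 0 in WT M0 allows up to 3 fragments over the group, and set against that floor ZBP1 was at least 5.56-fold higher in CES1KD M0, a bound that leaves out the counting error of the 18 fragments. One of the CES1KD M0 libraries was itself at 0, and without the filter the difference was not called (limma adjusted p = 0.261). In M2 the sums were 8 fragments in CES1KD and 0 in WT. In M1 it was at 0.478 FPKM from 192 fragments in CES1KD and 0.454 FPKM from 174 fragments in WT. The log2 difference there was 0.02 (limma adjusted p = 0.809). Against M0 it rose 12.3-fold in CES1KD M1 (limma adjusted p = 1.29e-10) and at least 61.9-fold in WT M1 (2.95e-11).

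The order of the 6 groups differed between the genes. DDX58, IFIH1, DHX58, EIF2AK2 and IFI16 all ran from CES1KD M1 through WT M1, CES1KD M0, CES1KD M2 and WT M0 down to WT M2. The libraries of CES1KD M1 and WT M1 overlapped in DHX58 and EIF2AK2. Those of CES1KD M0 and CES1KD M2 overlapped in all of these genes except IFI16, and those of WT M0 and WT M2 overlapped in DDX58, IFIH1 and EIF2AK2. TMEM173 ran from WT M0 through WT M2, WT M1, CES1KD M0 and CES1KD M2 down to CES1KD M1, with overlap between WT M2 and WT M1 and between CES1KD M2 and CES1KD M1. MAVS ran from WT M0 through WT M2, WT M1, CES1KD M2 and CES1KD M0 down to CES1KD M1, with WT M1, CES1KD M2 and CES1KD M0 overlapping in turn. TBK1 was highest in the M1 groups, and the other groups overlapped in turn. The ratio of TMEM173 to TBK1, adaptor to kinase, was 0.513 ± 0.00848 in CES1KD M0 and 3.42 ± 0.184 in WT M0 (SD, n = 4 each). In M1 it was 0.175 ± 0.025 in CES1KD and 1.27 ± 0.198 in WT.

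Genes whose levels ran most alike over the 24 libraries were sought among all genes tested, as a description, since the libraries share the same 6 groups. DDX58 ran with DTX3L, HERC5 and IFIT3 (Pearson r of 0.997, 0.997 and 0.997), and EIF2AK2 with PARP9, OAS2 and IFIT5 (0.996 each). IFIH1 ran with TRIM5, IFIT2 and B2M, DHX58 with STAT2, PML and IFIT2, and IFI16 with SP110, HERC6 and PLSCR1 (r of 0.998 for SP110). TMEM173 ran most closely with MYB (0.986), a transcription factor of immature blood cells, and with PLCG2 and PLPPR3. MAVS ran with SUMF1 (0.962), EPB41L1 and COL18A1, and TBK1 with IFNAR1 (0.987), a chain of the type I interferon receptor, CUL4B and LGALS8.

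The rest of the pathway was described through lists of genes, to be read against all genes tested: 28.1% were called higher and 26.3% lower in CES1KD M0 against WT M0, 28.5% higher and 28.7% lower in M1, and 26.4% higher in WT M1 against WT M0. Among 20 cofactors and regulators of the RNA sensors, 12 rose and 3 fell in CES1KD M0 (median log2 difference 0.28), and 5 rose and 4 fell in CES1KD M1, each against WT, so the M1 counts were no larger than the shares over all genes. ZNFX1, a helicase that binds RNA at mitochondria, averaged 38.9 ± 2.40 FPKM in CES1KD M0 and 13.2 ± 0.435 FPKM in WT M0 (log2 difference 1.49, limma adjusted p = 4.15e-14). SEC14L1 fell, with 11.2 FPKM in CES1KD M0 and 25.5 FPKM in WT M0 (-1.12, 5e-14), while DDX60 (1.66) and TRIM25 (0.97), the ubiquitin ligase of RIG-I, rose. Of 21 DNA sensors and STING regulators 14 were tested, and 4 rose and 8 fell in CES1KD M0 (median -0.30), where 28.1% of all genes rose and 26.3% fell. AIM2, the DNA sensor of the inflammasome, averaged 7.09 ± 0.679 FPKM in CES1KD M0 and 0.991 ± 0.290 FPKM in WT M0 (2.03, limma adjusted p = 6.25e-14). CGAS, the enzyme that makes the ligand of STING, averaged 14.9 ± 1.20 FPKM in CES1KD M0 and 7.98 ± 0.698 FPKM in WT M0 (0.82, 2.07e-09), while MNDA (-0.85) and G3BP1 (-0.59) fell.

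Below the sensors, 14 of 21 kinases, adaptors and interferon regulatory factors rose and 1 fell in CES1KD M0 (median 0.42), where 28.1% of all genes rose and 26.3% fell. In M1 11 rose and 3 fell, where 28.5% of all genes rose and 28.7% fell. IRF7, the factor that amplifies type I interferon, averaged 59.9 ± 3.42 FPKM in CES1KD M0 and 10.5 ± 1.12 FPKM in WT M0 (2.40, limma adjusted p = 7.84e-11). TNFAIP3 (A20, a brake on NF-kB) averaged 44.4 FPKM in CES1KD M0 and 10.6 FPKM in WT M0 (1.97, 2.1e-18), TRAF3 rose by 0.93 on the log2 scale, and OPTN fell by 0.65. Among 10 tested of 14 enzymes that edit or degrade nucleic acid, 2 rose and 3 fell in CES1KD M0 (median -0.05), near the shares over all genes. ADAR, which edits double-stranded RNA and so hides it from MDA5, averaged 123 ± 6.62 FPKM in CES1KD M0 and 36.5 ± 1.21 FPKM in WT M0 (1.72, limma adjusted p = 1.14e-15). PNPT1 rose as well (1.07), and LSM11 (-0.81) and RNASET2 (-0.82) fell. TREX1, the exonuclease for cytosolic DNA, was listed at 0 in all libraries; it overlaps another gene of the table on the same strand.

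Of 11 tested among 13 endosomal receptors and adaptors, 4 rose and 2 fell in CES1KD M0 (median -0.09), where 54.3% of all genes were called, 28.1% higher and 26.3% lower. MYD88, the adaptor of most Toll-like receptors, averaged 37.7 FPKM in CES1KD M0 and 9.34 FPKM in WT M0 (1.90, limma adjusted p = 1.11e-15), and UNC93B1 (1.16) and TICAM1 (1.24), the adaptor of TLR3, rose while HSP90B1 (-0.67) fell. Among 8 partners of ZBP1 in cell death, 4 rose and 2 fell in CES1KD M0 (median 0.19) against the same shares over all genes, with CFLAR at 0.38 and RIPK1 at 0.29. Among 10 other kinases of eIF2alpha and their targets, 5 rose and 0 fell (median 0.13), again against 28.1% higher and 26.3% lower over all genes, with DDIT3 at 19.4 FPKM in CES1KD M0 and 6.75 FPKM in WT M0 (1.40, limma adjusted p = 9.48e-09) and PPP1R15A at 1.38. In WT cells, M1 against M0 raised 10 of the 20 RNA cofactors, 5 of the 14 DNA genes, 16 of the 21 kinases, adaptors and factors, 8 of the 11 endosomal genes, 5 of the 10 handling enzymes, 5 of the 8 ZBP1 partners and 3 of the 10 eIF2alpha genes, where 26.4% of all genes were called higher.

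Interferon transcripts themselves were almost absent. Of 20 type I and III interferon genes, 0 passed the filter and 14 had no fragment in any library. IFNB1 had 9 fragments over the CES1KD M0 libraries and 1 over the WT M0 libraries, 22 over CES1KD M1 and 9 over WT M1, and 7 over CES1KD M2 and 0 over WT M2. Over all 20 genes the sums were 18 fragments in CES1KD M0 and 1 in WT M0, 33 in CES1KD M1 and 12 in WT M1, and 7 in CES1KD M2 and 1 in WT M2. These counts are too small for a level, and no test was run on them.

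The position of TMEM173 in the genome was looked at because its fall differed so little between the states. Of 89 tested genes starting within 5 Mb of it on chromosome 5, 60 were called lower and 7 higher in CES1KD M0 than in WT M0, with a median log2 difference of -0.52, where 26.3% of all genes were called lower. The median was -0.49 in M1 and -0.48 in M2. TMEM173 itself, at -2.43 in M0, lay below all of these neighbours but 1, PCDHGA12 (-3.32). Around IFI16 on chromosome 1 the neighbours lay the other way, with 78 of 146 called higher and 11 lower in M0 and a median of 0.41, where 28.1% of all genes were called higher and 26.3% lower. Around DDX58 (68 neighbours), IFIH1 (21), MAVS (55), EIF2AK2 (41) and DHX58 (139) the medians were between -0.01 and 0.07, and around TBK1 (33) the median was -0.29. Around TLR3 (28) the median was 0.26, with 11 called higher and 1 lower against the same shares over all genes. Around ZBP1 (36) it was 0.05. The part of these regional shifts in the results for TMEM173, IFI16, TBK1 and TLR3 was not tested.

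**Figure D4:**
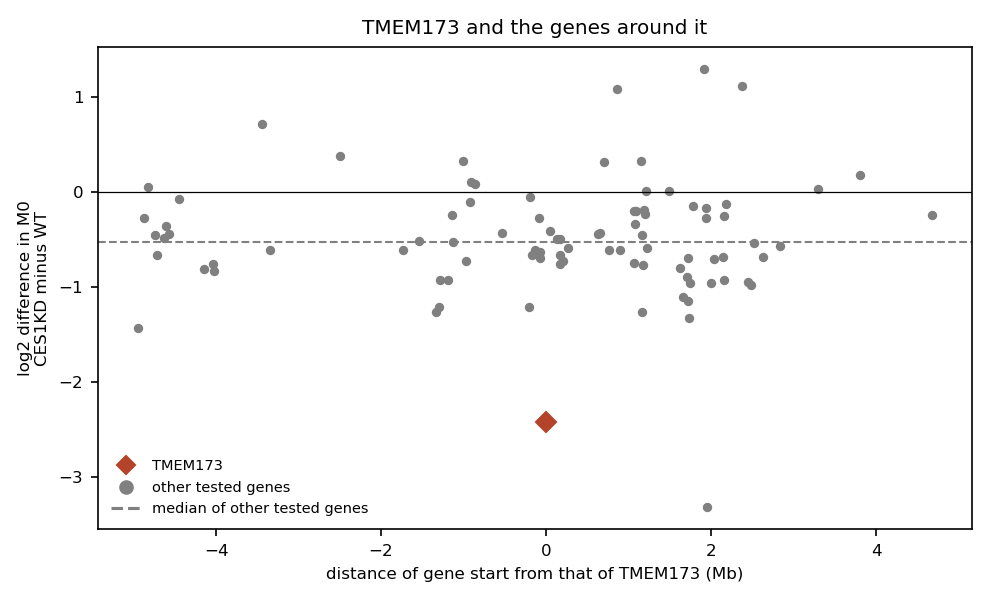
Log2 difference, CES1KD minus WT in M0, of each tested gene within 5 Mb of TMEM173, by distance from it in Mb. The lines mark 0 and the median of the other genes, -0.52. TMEM173 at -2.43 lies below all others except 1 point at -3.32.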

How the data were processed

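RNA-seq of 24 THP-1 libraries in 6 groups of 4 was analysed, grouped by the titles in the labels. The authors deposited 1 table of FPKM values with gene lengths, coordinates and biotypes. The tools that the submitters' processing notes list are CASAVA, HISAT2 and DESeq, without version or role; genome build and annotation were not given in the sources used here. Coordinates are printed as deposited, and 58690 of the 58735 genes (99.9%), including all 10 described, have those of GENCODE release 29 (GRCh38). FPKM times length came out as whole multiples of 1 step per library for 100% of values (tolerance 1e-06), which gave back the fragments behind each value. The authors divided by an adjusted library size: relative to total fragments it was 1.01 to 1.14 for M0 and M2 and 0.87 to 0.946 for M1. Within groups, libraries correlated at 0.951 to 0.991, and 0 pairs were near-identical. Per the labels' protocols, RNA integrity numbers were above 4. The labels give no batch.

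The 13242 genes at 1 FPKM or above in 4 or more libraries were fitted on log2(FPKM + 1) with limma 3.58.1 in R 4.3.3, 1 fit over the 6 groups with a trended prior, two-sided, Benjamini-Hochberg over all genes tested, called at an adjusted p under 0.05. The pseudocount of 1 understates the change of low genes. The intervals printed for log2 differences are limma's and rest on the spread between libraries in the fit. Floors (3 fragments) cover counting error only, and bounds on a fold use the floor over the group. The script was tested on simulated data. The members, the gene lists and the tests were chosen with earlier results of these data known. The text names all 10 genes, CES1, up to 4 genes per list by smallest p, and the 3 protein-coding genes outside the 10 most like each tested one by Pearson's r. Alternatives were pseudocounts of 0.1 and 0.5, no filter, TPM, median-ratio and total-fragment scaling (the last chosen after seeing the data), voom on recovered fragments, a fit on only the groups compared, a replicate block, no trend, and leaving out each library. Median-ratio factors came out at 1 in every library, so that scaling repeats the main fit. Same-numbered replicates did not deviate together throughout, so the numbers were not taken as pairs. PCDHGA12, in the paragraph on neighbours, was named after its value was seen.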

Additional observations from a re-analysis of the deposited data

Results flagged for a closer look

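The knockdown effect differed between M1 and M0 in 6 of the 8 genes, by the limma test of the difference itself: -2.28 on the log2 scale for DDX58, -1.75 for EIF2AK2, -1.54 for IFIH1, -1.17 for IFI16, -1.06 for DHX58 and 0.33 for MAVS. Of all genes tested, 23.6% were called for this difference, 10.4% higher and 13.2% lower.

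In 4 of 58 groups of 4 libraries, 1 library's gap to its nearest neighbour took up more of the group's range than Dixon's 95% limit, which chance passes in about 1 in 20 groups. All were CES1KD M2 libraries. Replicate 2 was the highest for EIF2AK2, at 39.1 FPKM (next 30.1), and for TBK1, at 15.9 FPKM (next 10.9), and the lowest for ZBP1, at 0 FPKM (next 0.02). Replicate 4 was the lowest for IFI16, at 35.1 FPKM (next 40.6). The calls that changed without replicate 2 are given with and without it in the text above.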

How the results depend on the processing

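Leaving out 1 library kept 174 of 176 counts within 1.5 times and 667 of 704 gene values on their side of the threshold with their sign. The other alternatives kept 176 of 180 counts and 698 of 720 gene values. These include median-ratio scaling, whose factor was 1 in every library. It repeats the main fit, so its part of these counts was fixed in advance and shows nothing about dependence on scaling. For M2 against M0, the sensor genes called in WT numbered 4 under TPM scaling and 4 under scaling by total fragments (2 in the report). DHX58 and MAVS were added. Over all genes, 3681 were called in WT under TPM scaling and 3965 under total fragments (3585 in the report). In CES1KD, a fit on only the groups compared called 2 sensor genes (4 in the report) and 1861 genes in all (3025 in the report). Leaving out 1 library there gave 2 to 6 sensor genes and 2585 to 3254 genes in all. Every reversal was of a value near 0 that was not called. The knockdown effect in M1 minus that in M0 for TMEM173 was -0.0917 with a pseudocount of 0.1, -0.034 with 0.5 and -0.113 with voom, and -0.00707 to 0.0616 without single libraries. That in M2 minus that in M0 for TMEM173 was -0.0879, -0.0400 and -0.0812 under the same alternatives and -0.0478 to 0.126 without single libraries. M2 against M0 for MAVS in CES1KD was -0.0139 under TPM scaling, -0.0295 under total fragments and -0.0198 to 0.0215 without single libraries. For TBK1 in WT, M2 against M0 was -0.0194 under TPM scaling and -0.025 under total fragments. The M1-minus-M0 knockdown effect for TBK1 was -0.00818 under TPM scaling and -0.0377 to 0.0906 without single libraries. Without single libraries, M2 against M0 for IFIH1 in WT was -0.0522 to 0.0227, and the M2-minus-M0 knockdown effect for IFI16 was -0.0273 to 0.0656. The cause of these moves was not tested.

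Scaling moved the split of all called genes in M1 against M0: 55.7% were higher in CES1KD and 54.8% in WT, but 22.3% and 25.6% under TPM scaling and 25.6% and 26.2% under total fragments. In M2 against M0 in WT, 54% were higher, against 34.6% under TPM and 34% under total fragments. Of genes called for the M2-minus-M0 knockdown effect, 36.2% were higher, against 51.6% under TPM and 53% under total fragments. A replicate block called 7436 genes for CES1KD against WT in M0 (7196 without it) and changed no call among the 8 sensor genes. Same-numbered libraries correlated at -0.14 to 0.41 in their deviations. Between the lines the range was -0.0354 to 0.0329 in M0, 0.0431 to 0.413 in M1 and -0.0578 to 0.41 in M2. The best match of a CES1KD library had its own number for 0 of 4 libraries in M0, 2 in M1 and 3 in M2. As the numbers did not match throughout, they are not treated as a pairing. Depth limits TLR3, ZBP1 and the interferon genes, whose values rest on few fragments.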

Other observations

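Among the 8 genes tested, the replicate number of the lowest library was the same in CES1KD M1 and WT M1 for 6 genes, in CES1KD M2 and WT M2 for 2, and in CES1KD M0 and WT M0 for 0. That of the highest library was the same in both lines for 5 genes in M1, 4 in M2 and 1 in M0. In M1, replicate 4 was the lowest of its group in both lines for DDX58, IFIH1, IFI16, EIF2AK2 and TBK1. For DHX58 it was the highest in both lines, at 28.6 FPKM in CES1KD M1 and 24.8 FPKM in WT M1. MAVS was also highest in replicate 4 of WT M1, at 5.58 FPKM. This pattern was noticed in the values and no test was run on it.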
